A study of Homo sapiens with 18 samples.

Results

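Nucleotide excision repair is the pathway that removes bulky lesions, including most cisplatin adducts, from DNA, and 40 genes that encode its damage recognition, TFIIH, incision and resynthesis factors were followed here. They were taken by gene name as rows of the raw count table, and all 40 were among its 23622 genes. RNA-seq was performed in A2780 cells, an ovarian carcinoma line, and in Acis cells (A2780cis), its cisplatin-resistant derivative, which had been kept under selection with 1 µM cisplatin once every 3 passages. Each line was taken either as untreated control or after 3 h in medium with 200 µM cisplatin, which gave 4 groups of 3 libraries. ATAC-seq, which maps open chromatin by transposase insertion, was available as 1 list of peaks for each of the same 4 conditions. Per the methods of the authors the replicates were seeded as triplicate wells, so that p-values measure the spread between wells. The RNA came from bulk cultures, in which fewer cells with a transcript and less of it per cell cannot be told apart.

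In nucleotide excision repair the damaged strand is cut on both sides of the lesion, the oligonucleotide is released, and the gap is filled and sealed. Lesions are found either anywhere in the genome by XPC and the UV-DDB complex, or in transcribed strands by an RNA polymerase II that has stalled, which recruits the CSA and CSB proteins. Both branches then use TFIIH to open the helix, XPA and RPA to hold it, the ERCC1-XPF and XPG nucleases to cut, and the replication machinery with a DNA ligase to resynthesize. Cisplatin forms intrastrand crosslinks that are a classical substrate of this pathway, which is why its genes are often measured in resistant cells.

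The libraries held 4130644 to 5072216 reads counted on genes, and 39 of the 40 repair genes passed the filter on low counts. The exception was GTF2H4, a TFIIH subunit, with 52 reads over the 12 libraries, and 79.7% of its exon bases lie in another annotated gene. Of the markers of other cell types, PTPRC, CD3E, PECAM1, VWF and CDH5 were not in the table. The leukocyte marker CD68 was in it with 39 reads over the 12 libraries, as were the stromal markers COL1A1, COL1A2, DCN and LUM. The epithelial marker CDH1 was also not in the table, EPCAM had group means of 0.647 to 4.17 normalised counts and VIM of 1783 to 2006. Other structural markers differed between the untreated lines. The keratin KRT18 averaged 25.5 normalised counts in A2780 control and 143 in Acis control, whereas the keratin KRT8 averaged 15.6 and 4.05. The cadherin CDH2 averaged 631 in A2780 control and 68.3 in Acis control. COL1A1 averaged 843 normalised counts in A2780 control and 16.4 in Acis control, so the lines differ beyond repair genes. The other stromal markers were also lower in Acis control. COL1A2 had 15.9 RPKM in A2780 control and 0 in Acis control, DCN 0.780 and 0.0616, and LUM 0.972 and 0.151. Several pairs of libraries of a group differed by less than the counting noise, with ratios of observed to counting variance of 0.733 to 0.952, while the other pairs reached 1.53, and all were kept as replicates.

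Short stretches of DNA at DDB2 and PCNA are shown first, because these 2 genes passed the edgeR test below as higher after cisplatin in both lines. The result for DDB2 was kept under all alternatives. That for PCNA was near the threshold and was lost by DESeq2 in both lines (adjusted p = 0.223 in A2780 and 0.384 in Acis). Promoter windows of RefSeq (GRCh38.p14), from 250 bases before to 50 bases after a start, were found for 38 of the 40 genes, as 54 windows. The half-site consensus of p53, the damage-activated transcription factor, was present in 3 of these windows, at DDB2, PCNA and RFC3, which is 5.56% against 6.63% of all 35116 windows. A full p53 site, taken as 2 half-sites of 10 bases with a spacer of 0 to 13 bases, was present in 10 of the 35116 windows (0.0285%), and the one among the repair genes was at DDB2. It lies at chr11:47214979-47214999 on the plus strand, in the 5′ untranslated first exon of the transcripts that start at position 47214974. Both half-sites are in capitals and the spacer of 1 base is in lower case.
DDB2 p53 site: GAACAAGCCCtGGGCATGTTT
The 250 bases before the first annotated start of DDB2 (chr11:47214204-47214453, plus strand) and of PCNA (chr20:5126623-5126872, minus strand) are given below, with each CCAAT or GGGCGG on either strand in capitals.
DDB2 upstream: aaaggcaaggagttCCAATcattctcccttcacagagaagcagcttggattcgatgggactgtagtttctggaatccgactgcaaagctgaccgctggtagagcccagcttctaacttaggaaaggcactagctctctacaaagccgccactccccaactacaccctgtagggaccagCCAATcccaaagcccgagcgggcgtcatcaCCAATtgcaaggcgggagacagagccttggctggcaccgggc
PCNA upstream: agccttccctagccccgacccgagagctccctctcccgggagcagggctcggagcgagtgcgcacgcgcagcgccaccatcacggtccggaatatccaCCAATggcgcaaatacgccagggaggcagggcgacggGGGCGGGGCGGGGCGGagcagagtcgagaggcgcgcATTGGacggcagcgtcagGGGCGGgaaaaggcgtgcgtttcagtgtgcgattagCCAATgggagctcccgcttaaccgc
The DDB2 stretch shown held CCAAT 3 times and GGGCGG 0 times, and the PCNA stretch shown held CCAAT 3 times and 4 overlapping or separate GGGCGG. These counts depend on the start taken. The 250 bases before the DDB2 start at 47214974, whose transcripts hold the p53 site, had CCAAT 0 times and GGGCGG 3 times. Those before a second PCNA start, at 5119958, had each of them 2 times. Over the windows of the repair genes, CCAAT was present in 33.3% and GGGCGG in 68.5%, against 34.6% and 45.0% of all windows. These matches are letters in a window and do not show binding.

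None of the repair genes reached a log2 fold change of 1 in either direction with an adjusted p-value under 0.05, in any of the 4 comparisons between groups. By edgeR's quasi-likelihood test the count was 0 of 39 in each comparison, it was 0 with unadjusted p-values and it was 0 by DESeq2. The background for these thresholds over all 15760 tested genes was 5.62% for cisplatin in A2780, 2.01% for cisplatin in Acis, 19.1% for untreated Acis against A2780 and 19.2% for treated Acis against A2780. The repair genes therefore differed in small steps, and the calls that follow use the adjusted p-value under 0.05 alone.

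After cisplatin, 6 repair genes were higher and 10 lower in A2780, against 21.2% and 28.2% of all tested genes. In Acis, 2 were higher and 3 lower, against 9.35% and 12.4% of all. Without single libraries there were 5 to 6 higher and 6 to 11 lower in A2780 (6 without A2780 cisplatin replicate 1), and 1 higher and 0 to 5 lower in Acis (0 without Acis cisplatin replicate 1 or 2). The median log2 fold change of the 39 genes was -0.04 in A2780 and 0.02 in Acis, beside -0.01 and 0.01 over all genes. The 5 genes of transcription-coupled recognition all passed the test in A2780, 2 higher and 3 lower, whereas of 8 tested TFIIH genes 1 passed. This contrast depends on the fit. ERCC6 and ERCC8 were lost by DESeq2 (adjusted p = 0.0903 and 0.0923) and with total counts as library size (0.194 and 0.162). With total counts the TFIIH genes ERCC2 (0.00137) and ERCC3 (0.0421) passed too. Groups of libraries did not overlap for 16 of 39 genes in A2780 and 10 of 39 in Acis, against 57.3% and 34.2% of all genes. The shares of repair genes called, 41.0% in A2780 and 12.8% in Acis, were below those of all genes, 49.5% and 21.8%. With total counts as library size, the median of all genes in A2780 moved from -0.01 to 0.10 and the share of calls that were lower from 57.1% to 36.6%, and 17 repair genes were then higher and 5 lower, which is 56.4% against 53.1% of all genes, the opposite order. In Acis that share moved from 57.1% to 37.6%, and for the interaction below from 29.0% to 51.8%.

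**Figure D1:**
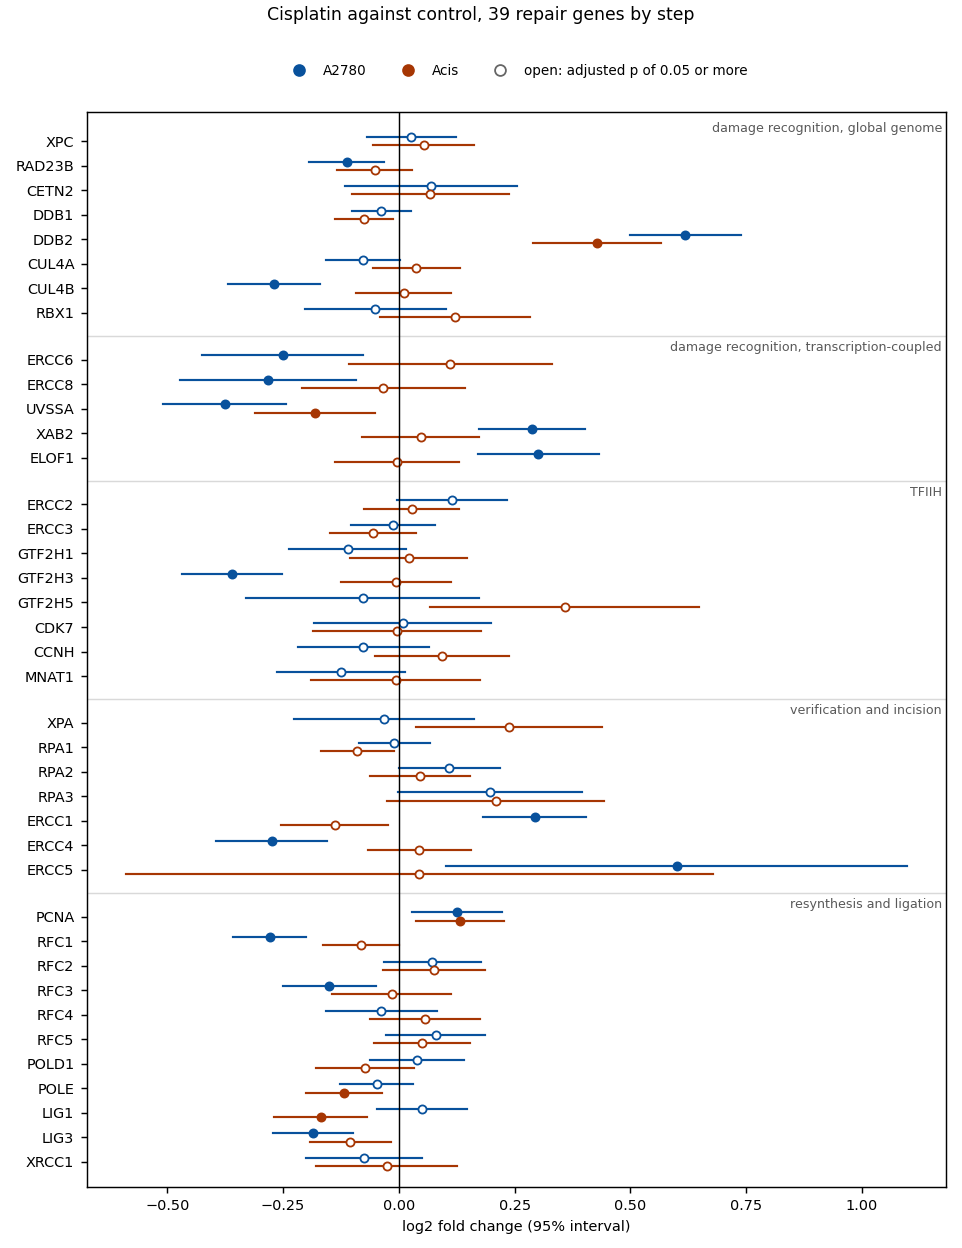
Log2 fold change of cisplatin against control (x axis) for the 39 tested repair genes, ordered by step (y axis), in A2780 (blue) and Acis (brown), with 95% intervals and filled points for an adjusted p-value under 0.05. DDB2 stands to the right in both lines, and most genes with a filled blue point have an open brown point nearer 0.

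The effect of cisplatin differed between the lines for 8 genes by the interaction term of the same fit. It was more negative in Acis for ERCC1, ELOF1, XAB2 and LIG1 and more positive in Acis for GTF2H3, ERCC4, CUL4B and RFC1. The background was 13.4% of all genes more positive and 5.48% more negative in Acis, 18.9% in all, against 10.3% and 10.3% of the repair genes. By DESeq2 3 of the 8 were called, GTF2H3, CUL4B and ERCC1, against 6.92% of all genes more positive and 1.87% more negative, and single omissions left 2 to 4 more negative. In untreated cells, 9 repair genes were higher and 12 lower in Acis than in A2780, against 28.2% and 30.6% of all genes. After cisplatin 13 were higher and 15 lower in Acis, against 31.8% and 31.2%. The higher count was 6 by DESeq2 (26.2% of all genes), with total counts as library size (27.6%) and among genes with at least 50 counts on average (3662 of 10898). In all, 53.8% of the repair genes differed between the untreated lines and 71.8% between the treated lines, against 58.9% and 63% of all genes. For the treated lines that order turned by DESeq2 (51.3% against 55.4%) and with total counts (61.5% against 62.9%). Libraries of the lines did not overlap for 25 and 27 of 39 genes, against 64.2% and 66.7% of all. These comparisons share libraries, so the counts are not independent of each other.

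Damage recognition in the global genome was led by DDB2, the small subunit of UV-DDB that binds lesions and a known p53 target. DDB2 (chr11:47214465-47239217, ENSG00000134574) had 273, 283 and 288 normalised counts in the A2780 control libraries and 427, 451 and 417 after cisplatin. In Acis it had 269.5, 228 and 232 in control and 330.0, 333 and 320.1 after cisplatin. The treated libraries were above the control libraries in both lines, without overlap, and the A2780 cisplatin libraries were the highest of all. The fold change was 1.54 (95% interval 1.41 to 1.67) in A2780 and 1.35 (1.22 to 1.48) in Acis, with adjusted p-values of 1.72e-09 and 2.25e-05. It was the only repair gene whose call in Acis was kept under all 14 alternatives tried. The interaction was -0.19 ± 0.09 on the log2 scale with an adjusted p-value of 0.154, so a difference between the lines in this response did not pass the test. Untreated DDB2 was lower in Acis (-0.21 ± 0.07, adjusted p = 0.012). That call was lost without Acis control replicate 2 (adjusted p = 0.0728) and by DESeq2 (0.0862), but the gap after cisplatin was -0.40 ± 0.06 (adjusted p = 7.42e-07) and was kept throughout.

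CUL4B and CUL4A are alternative scaffolds of the ubiquitin ligase that UV-DDB works in. CUL4B had 751, 741 and 756 normalised counts in A2780 control and 591, 650.3 and 624 after cisplatin, with no overlap. In Acis it had 606, 700.4 and 668 in control and 672, 678 and 637 after cisplatin, and the groups overlapped. CUL4B fell in A2780 by a log2 fold change of -0.27 ± 0.05 (adjusted p = 4.21e-05), had 0.01 ± 0.05 in Acis (adjusted p = 0.934), and the interaction was 0.28 ± 0.07 (adjusted p = 0.00543). The untreated lines differed as well, with CUL4B lower in Acis by -0.19, a call kept under all 14 alternatives. Between the treated lines the value was 0.09 and did not pass the test. CUL4A had 1130.2, 1142 and 1128 normalised counts in A2780 control and 741, 765 and 721 in Acis control, a log2 fold change of -0.61 ± 0.04 (adjusted p = 8.8e-13). After cisplatin the libraries of A2780 had 1019, 1111 and 1094 and those of Acis 797, 724 and 765. Acis was lower in all pairs of libraries in both states. Within A2780 the treated libraries of CUL4A were below the control libraries, and the log2 fold change of -0.08 ± 0.04 did not pass the test (adjusted p = 0.0987), although it did without A2780 cisplatin replicate 2 and with no filter on low counts.

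XPC, which senses the distorted helix, was lower in Acis, with 434 ± 9.36 (SD, n = 3) against 556 ± 10.7 normalised counts in control (log2 -0.36 ± 0.05, adjusted p = 7.28e-07), and had log2 fold changes of 0.03 and 0.05 with cisplatin that did not pass the test. Its partner CETN2 was higher in Acis (165 ± 11.3 against 131 ± 8.61, log2 0.34 ± 0.09, adjusted p = 0.00167), as was DDB1, the large subunit of UV-DDB (0.13, adjusted p = 0.000734). RAD23B, which stabilizes XPC, was lower after cisplatin in A2780 by -0.11 (adjusted p = 0.0187), but its libraries overlapped, with total counts as library size the value was 0.0043, and the call was lost by DESeq2 (0.0592) and without A2780 control replicate 3 (0.0755) or A2780 cisplatin replicate 1 (0.0846) or 3 (0.0688). RBX1, the RING subunit of the ligase, did not pass the test in any comparison.

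In transcription-coupled recognition, 3 genes fell and 2 rose in A2780. UVSSA, which stabilizes the stalled polymerase complex, had 448, 491 and 434 normalised counts in A2780 control and 389, 330.0 and 339 after cisplatin, and 469, 475 and 472 in Acis control and 389.5, 409 and 449.7 after cisplatin. Treated libraries were below control libraries in both lines. The log2 fold change was -0.38 ± 0.06 in A2780 (adjusted p = 2.13e-05) and -0.18 ± 0.06 in Acis (adjusted p = 0.039). The Acis call was lost without each of Acis control replicates 1, 2 and 3 (adjusted p = 0.0633, 0.0849 and 0.0719) and without Acis cisplatin replicates 1 and 2 (0.211 and 0.107), by DESeq2 (0.0832), with merged pairs (0.077) and with total counts as library size (0.152).

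ELOF1, an elongation factor that positions the repair complex on the polymerase, had 288, 292 and 317 normalised counts in A2780 control and 382, 372 and 349 after cisplatin. In Acis it had 355, 298 and 337 and 324, 335 and 329, where the groups overlapped. XAB2, an XPA-binding protein that also takes part in splicing, had 415, 443 and 433 in A2780 control and 546, 494 and 535 after cisplatin, and 425, 400.2 and 377 and 397, 399.5 and 448 in Acis. Both rose in A2780 without overlap, ELOF1 1.23-fold (1.13 to 1.35, adjusted p = 0.000264) and XAB2 1.22-fold (1.13 to 1.32, adjusted p = 0.000113), and both calls were kept under all 14 alternatives. In Acis the log2 fold changes were -0.00 and 0.05, and neither passed. The interactions were -0.31 ± 0.09 (adjusted p = 0.0182) and -0.24 ± 0.08 (adjusted p = 0.0429). The first was lost without A2780 control replicates 1 (0.061) and 2 (0.0548) and Acis control replicate 1 (0.0826) and by DESeq2 (0.0873). Of the omissions, the second was kept only without A2780 cisplatin replicate 2, Acis control replicate 3 or Acis cisplatin replicate 3, with adjusted p-values of 0.0537 to 0.147 under the others, and it was lost by DESeq2 (0.135), with no filter (0.0813) and with merged pairs (0.0694).

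ERCC8, which encodes the CSA protein, had 153, 139 and 130.2 normalised counts in A2780 control and 112, 120.0 and 116 after cisplatin, and 163, 158 and 165 and 151, 176 and 148 in Acis. It fell in A2780 by -0.28 ± 0.09 on the log2 scale (adjusted p = 0.014), a call that was lost without A2780 control replicate 1 (adjusted p = 0.109) or A2780 cisplatin replicate 1 (0.0506), by DESeq2 (0.0923) and with total counts as library size (0.162). ERCC6, which encodes CSB, the ATPase that first engages the stalled polymerase, had 213, 219 and 233 normalised counts in untreated and 173, 182 and 202 in treated A2780, and 140.1, 113 and 136 in untreated and 141, 158 and 119.8 in treated Acis. All 6 Acis libraries were below all 6 of A2780. Untreated ERCC6 was 0.59-fold of A2780 (0.51 to 0.67, adjusted p = 7.69e-08), and the gap was also called after cisplatin (-0.41 ± 0.09, adjusted p = 0.000472). Its decrease with cisplatin in A2780, -0.25 ± 0.08 (adjusted p = 0.0155), was lost without A2780 cisplatin replicate 1 (0.0745) or A2780 control replicate 3 (0.0644), by DESeq2 (0.0903), with total counts as library size (0.194) and among genes with at least 50 counts on average (0.0589).

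**Figure D2:**
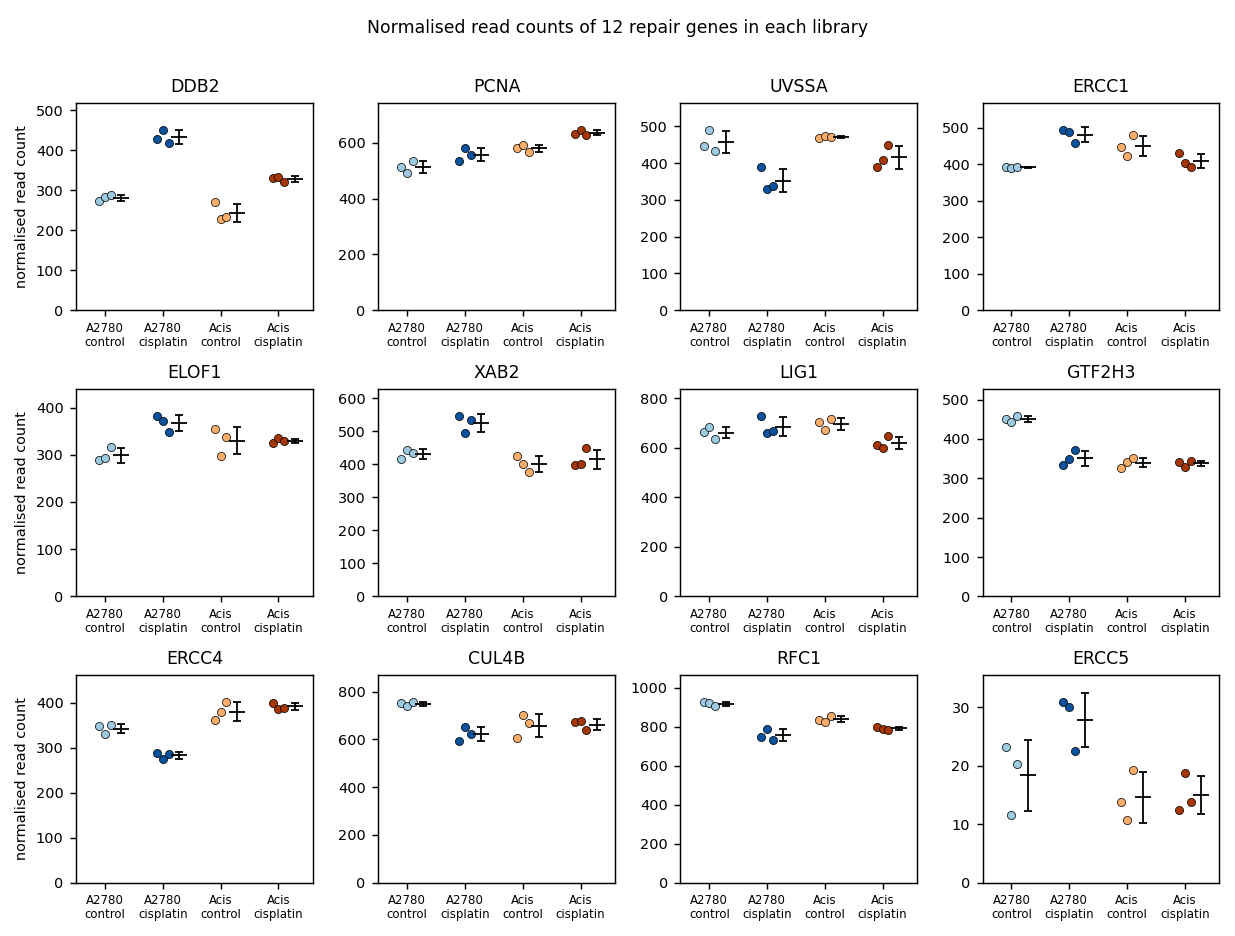
Normalised read counts (y axis, from 0) of 12 repair genes in each library of the 4 groups (x axis), with mean and SD to the right of the 3 points. DDB2 and PCNA are higher in the treated group of both lines, ERCC1, ELOF1 and XAB2 in that of A2780, and GTF2H3 is lower in all groups other than A2780 control.

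TFIIH, the helicase complex that opens DNA around the lesion, had 5 of 8 tested genes called between the untreated lines, against 58.9% of all genes, and 1 of 8 for cisplatin in A2780, against 49.5%. The latter was GTF2H3, a core subunit, which had 450.4, 442 and 459 normalised counts in A2780 control against 333, 348 and 371 after cisplatin. In Acis it had 327, 342 and 351 in control and 341, 329.7 and 344 after cisplatin, so that the 3 other groups all lay below A2780 control. It fell with cisplatin in A2780 by -0.36 ± 0.05 (adjusted p = 2.07e-06) and was lower in untreated Acis than A2780 by -0.41 ± 0.05 (adjusted p = 2.76e-07). In Acis the value with cisplatin was -0.01 ± 0.06 (adjusted p = 0.975) and the interaction 0.35 ± 0.08 (adjusted p = 0.00194), and the calls in A2780, between untreated lines and in the interaction were kept under all alternatives. No TFIIH gene passed the test for cisplatin in Acis, 0 of 8 by edgeR (21.8% of all genes called) and by DESeq2 (13.2%). At an unadjusted p-value under 0.05 by edgeR there was 1, against 5042 of 15760 genes. That gene, GTF2H5 (0.36 ± 0.14), passed with total counts as library size (adjusted p = 0.0356) and in the fit of the 2 Acis groups alone.

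MNAT1, the assembly factor of the CDK-activating kinase of TFIIH, had 256, 269 and 269.9 normalised counts in A2780 control and 144, 164 and 148 in Acis control. After cisplatin it had 227, 244 and 259 in A2780 and 138, 158 and 158 in Acis. All Acis libraries were below all A2780 libraries, and the untreated log2 fold change was -0.80 ± 0.08 (adjusted p = 8.77e-10), the largest among the repair genes between untreated lines. CDK7, the kinase itself, was higher in untreated Acis (0.24 ± 0.09, adjusted p = 0.0265), although this was lost without A2780 control replicates 1 (0.16) and 3 (0.0634) or Acis control replicates 1 (0.106) and 3 (0.143) and by DESeq2 (0.153). Their cyclin CCNH had -0.07 and did not pass the test.

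ERCC2, which encodes the XPD helicase, had 515, 487 and 463 normalised counts in A2780 control and 798, 742 and 726 in Acis control, with 568, 498 and 522 and 735, 771 and 806 after cisplatin. It was 1.54-fold higher in untreated Acis (1.43 to 1.67, adjusted p = 9.82e-11), the largest increase among the repair genes there, and no library of the lines overlapped. GTF2H5, the small stabilizing subunit, had 109, 96.1 and 108 in A2780 control and 72.2, 62.8 and 80.9 in Acis control, a log2 fold change of -0.54 ± 0.14 (adjusted p = 0.00132). After cisplatin it had 80.6, 93.9 and 123 in A2780 and 89.2, 100.4 and 86.4 in Acis, which overlapped. The second helicase, ERCC3 (XPB), had log2 values between -0.06 and -0.01 in the 4 comparisons and none passed.

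Among the verification and incision genes, the partners of one nuclease moved in opposite directions in A2780. ERCC1, the DNA-binding subunit of the nuclease that cuts on the 5′ side, had 393, 391 and 394 normalised counts in A2780 control and 495, 489.7 and 458 after cisplatin. Its catalytic partner ERCC4 (XPF) had 348, 331 and 349.9 in control and 289, 275 and 286 after cisplatin. Neither gene's groups overlapped. ERCC1 rose 1.23-fold (1.13 to 1.32, adjusted p = 5.91e-05), whereas ERCC4 was 0.83-fold of control (0.76 to 0.90, adjusted p = 0.000288), and both were kept under all alternatives.

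In Acis, ERCC1 had 449, 424 and 479.6 normalised counts in control and 429.8, 404 and 392 after cisplatin, and ERCC4 had 362, 379 and 402 and 400.1, 388 and 389. The groups overlapped for both genes, and the log2 values, -0.14 ± 0.06 (adjusted p = 0.0785) and 0.04 ± 0.05 (adjusted p = 0.688), did not pass. The interaction was -0.43 ± 0.08 for ERCC1 (95% interval -0.59 to -0.27, adjusted p = 0.000259) and 0.32 ± 0.08 for ERCC4 (0.16 to 0.48, adjusted p = 0.00523). ERCC1 was kept under all alternatives, and ERCC4 was lost by DESeq2 (0.0844). After cisplatin ERCC4 was higher in Acis than in A2780 by 0.47 ± 0.06 (adjusted p = 3.74e-08) and ERCC1 lower by -0.23 ± 0.05 (adjusted p = 0.000418). In untreated cells both were higher in Acis, ERCC1 by 0.20 (adjusted p = 0.00367) and ERCC4 by 0.15 (adjusted p = 0.0295). The first was lost without Acis control replicate 3 (0.0613), and the second without any one A2780 control library (0.0567 to 0.177) and without Acis control replicates 2 (0.0743) and 3 (0.24), by DESeq2 (0.161) and with no filter (0.0556).

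ERCC5, which encodes XPG, the nuclease of the 3′ side, had 23.3, 11.5 and 20.3 normalised counts in untreated and 30.9, 30 and 22.6 in treated A2780, and 13.8, 10.6 and 19.4 in untreated and 12.5, 18.7 and 13.7 in treated Acis. These are few reads, and 33.0% of its exon bases are shared with the readthrough gene BIVM-ERCC5, whose shared reads the counting leaves out. The increase with cisplatin in A2780 (0.60 ± 0.24, adjusted p = 0.0416) had overlapping groups. It was lost without A2780 control replicate 2 (0.341, adjusted p = 0.297), without A2780 control replicate 3 (0.0592), without A2780 cisplatin replicates 1 (0.134) and 2 (0.111), with no filter (0.056) and by DESeq2 (0.219). Treated Acis was lower than treated A2780 by -0.89 ± 0.25 (adjusted p = 0.00329).

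XPA, the scaffold that verifies damage, had 103 ± 4.83 normalised counts in untreated and 101 ± 3.54 in treated A2780, and 93.2 ± 3.14 and 109.8 ± 7.9 in Acis (SD, n = 3), and passed no test. Of the single-strand binding complex RPA, RPA3 was lower in untreated Acis (-0.40 ± 0.11, adjusted p = 0.00276), RPA2 was higher (0.16 ± 0.05, adjusted p = 0.0148) and RPA1 had 0.04. The RPA2 call was lost by DESeq2 (0.107) and without A2780 control replicates 1 (0.0539) and 2 (0.102) or Acis control replicates 1 (0.0836) and 3 (0.0657). No gene of verification and incision passed the test for cisplatin in Acis, 0 of 7 by edgeR (21.8% of all genes called) and by DESeq2 (13.2%). At an unadjusted p-value under 0.05 by edgeR there were 3, against 5042 of 15760 genes. With RLE size factors ERCC1 (adjusted p = 0.0456) and RPA1 (0.0431) passed, as did ERCC1 without Acis control replicate 2 and RPA1 without Acis cisplatin replicate 3.

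In resynthesis and ligation, PCNA, the sliding clamp of the polymerases and like DDB2 a known p53 target, had 513, 491 and 533 normalised counts in A2780 control and 536, 583 and 557 after cisplatin. In Acis it had 583, 593 and 566 and 633, 648 and 629, the highest 3 libraries of the 12. Treated and control libraries did not overlap in either line, and the log2 fold changes were 0.13 ± 0.05 (adjusted p = 0.0298) and 0.13 ± 0.05 (adjusted p = 0.0385). These small increases were near the threshold. In A2780 the call was lost without control replicate 1 or 2 or cisplatin replicate 2 or 3 (adjusted p = 0.0636 to 0.194), and in Acis without any 1 of the 6 libraries (0.0546 to 0.136). Both were lost by DESeq2 (0.223 and 0.384), with no filter (0.133 and 0.0891) and with merged pairs (0.083 and 0.12), and that of Acis with RLE size factors (0.0724). PCNA was also higher in untreated Acis (0.18 ± 0.05, adjusted p = 0.00188), and that call was kept. Per length, PCNA had the highest level of the repair genes, 79.9 ± 3.29 RPKM over merged exons in A2780 control and 99.2 ± 1.49 in Acis cisplatin (SD, n = 3), whereas GTF2H4, ERCC5 and ERCC8 had the lowest levels in A2780 control. These low levels depend on the exon length taken. Reads in the shared exon bases of GTF2H4 (79.7%) and ERCC5 (33.0%) are not counted. ERCC8 has 26458 merged exon bases and averaged 144 raw counts per library, against 1816 bases and 102 counts for XPA.

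LIG1, the ligase of replicating cells, had 702, 669.6 and 717 normalised counts in Acis control and 610.2, 600.3 and 646 after cisplatin, and 665, 681 and 637 and 728, 658 and 668 in A2780. It was lower after cisplatin in Acis without overlap (-0.17 ± 0.05, adjusted p = 0.012) and had 0.05 ± 0.05 in A2780, with an interaction of -0.22 ± 0.07 (adjusted p = 0.023). The Acis call was lost without Acis control replicate 3 (0.0517) or Acis cisplatin replicates 1 (0.0529) and 2 (0.0619) or with total counts as library size (0.0885), and the interaction by DESeq2 (0.0808) and without any of 5 single libraries (adjusted p = 0.0582 to 0.0796), which were A2780 control replicate 3, A2780 cisplatin replicate 1, Acis control replicate 3 and Acis cisplatin replicates 1 and 2. POLE, the catalytic subunit of polymerase epsilon, had 1767, 1685 and 1530.0 in Acis control and 1527, 1493 and 1573 after cisplatin, which overlapped, and 1744, 1739.8 and 1686 and 1721, 1656 and 1624 in A2780. Its log2 fold change in Acis was -0.12 ± 0.04 (adjusted p = 0.0317), and it was -0.05 ± 0.04 in A2780. That call was lost without Acis control replicates 1 (0.223) and 2 (0.0793) and Acis cisplatin replicates 1 (0.0853) and 2 (0.129), with total counts as library size (0.252) and in the fit of the 2 Acis groups alone (0.0604).

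RFC1, the large subunit of the clamp loader, had 928, 924 and 907 normalised counts in A2780 control and 749, 792 and 733 after cisplatin, and 837, 824 and 854 and 800.1, 790.2 and 785 in Acis, without overlap in either line. It fell in A2780 (-0.28 ± 0.04, adjusted p = 8.61e-07), had -0.08 ± 0.04 in Acis (adjusted p = 0.159), and the interaction was 0.20 ± 0.05 (adjusted p = 0.0121), which was lost by DESeq2 (0.132) and with total counts as library size (0.0859). RFC3, a small subunit of the same loader, had 421, 438 and 433 in A2780 control and 249, 259 and 253 in Acis control, and 379, 398 and 388 and 256, 250.0 and 246 after cisplatin. The untreated level in Acis was 0.59-fold of A2780 (0.54 to 0.64, adjusted p = 2.05e-12), whereas the other subunits RFC2, RFC4 and RFC5 had log2 values of -0.10, 0.06 and 0.18, of which RFC5 passed (adjusted p = 0.0062), though not by DESeq2 (0.0661). RFC3 lay with CUL4A and ERCC5 on chromosome 13, where 76.7% of 270 tested genes were lower in untreated Acis and the median log2 fold change was -0.73. The copy number of chromosome 13 was not measured, and its part in these 3 genes was not tested.

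XRCC1, the scaffold that works with ligase III, had 305, 302 and 336 normalised counts in A2780 control and 228, 209.7 and 227 in Acis control, and 318, 291 and 283 and 215, 214 and 224 after cisplatin. All 6 Acis libraries were lower, with an untreated log2 fold change of -0.50 ± 0.07 (adjusted p = 3.48e-07). LIG3, its ligase, had 0.04 between the untreated lines and fell with cisplatin in A2780 (-0.19 ± 0.04, adjusted p = 0.000633). With total counts as library size that value was -0.07 (adjusted p = 0.18). XRCC1 and ERCC2, which were lower and higher in Acis, both lie on chromosome 19, where the median of 1137 genes was -0.03.

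**Figure D3:**
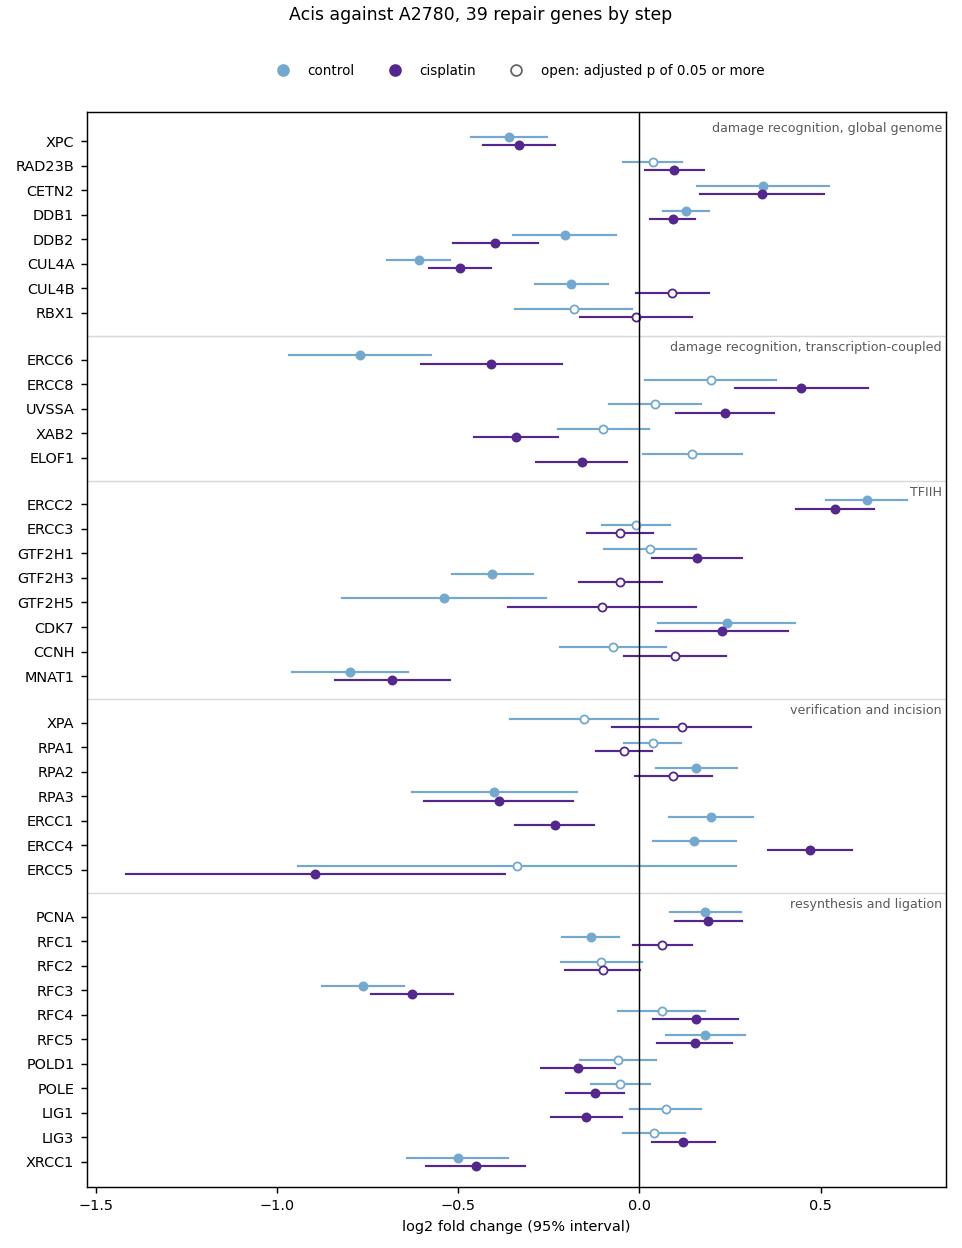
Log2 fold change of Acis against A2780 (x axis) for the 39 tested repair genes by step (y axis), in control (light blue) and cisplatin-treated cells (purple), with 95% intervals and filled points for an adjusted p-value under 0.05. MNAT1, ERCC6, RFC3 and CUL4A are farthest to the left in control cells and ERCC2 farthest to the right, and no called point reaches 1 in either direction.

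Of 28 further genes of the pathway, such as COP9 signalosome subunits and the remaining polymerase subunits, all were tested. With cisplatin, 7 were higher and 11 lower in A2780, against 21.2% and 28.2% of all genes, and 0 were higher and 5 lower in Acis, against 9.35% and 12.4%. The largest changes in A2780 were those of POLK, a gap-filling polymerase (log2 -0.57 ± 0.07, adjusted p = 3.74e-07), RNF111, a ubiquitin ligase that acts on XPC (-0.51 ± 0.06, 3.04e-08), AQR, a helicase that binds XAB2 (-0.41 ± 0.04, 2.37e-09), and USP45, a deubiquitylase of ERCC1 (-0.41 ± 0.08, 6.88e-05). In Acis USP45 had 0.05 ± 0.07 (adjusted p = 0.699). POLK, RNF111 and AQR had the largest changes of those called in Acis, with log2 values of -0.23, -0.17 and -0.25 and adjusted p-values of 0.0272, 0.0249 and 1.85e-05. Between untreated lines 8 were higher and 9 lower in Acis, against 28.2% and 30.6% of all genes, among them POLD3, a subunit of polymerase delta (-0.80 ± 0.06, adjusted p = 1.27e-12). POLD4 (-0.87 ± 0.29, adjusted p = 0.0106) had few reads and overlapping libraries, and GTF2H2 (-0.63 ± 0.11, adjusted p = 1.84e-05) has near-identical copies in the genome, so both values are uncertain.

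Gene length stood beside the response to cisplatin in the repair genes as in all genes. Across the 39 genes, Spearman's rho of gene length and log2 fold change was -0.50 in A2780 and -0.416 in Acis, and across 15708 genes it was -0.545 and -0.355. Taken for each treated library alone, the rho of the 39 genes lay between -0.493 and -0.409 for A2780, with a wider spread of -0.615 to -0.174 for Acis. These are correlations across genes of the same libraries and not across replicates. In A2780, the 12 repair genes of 10 to 30 kb had a median log2 fold change of 0.08, with 3 higher and 2 lower, and the 23 genes of 30 to 100 kb one of -0.08, with 2 higher and 7 lower. All tested genes of these classes had medians of 0.09 and -0.15. Over 100 kb the median of all genes was -0.40, but the 2 repair genes of that length, RFC3 and MNAT1, had -0.15 and -0.12. ERCC1 rose although its annotated gene, with all its transcripts, spans 71495 bases, and GTF2H3 fell although it is in the class of 10 to 30 kb. The part of gene length in the differences of single genes was not tested.

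**Figure D4:**
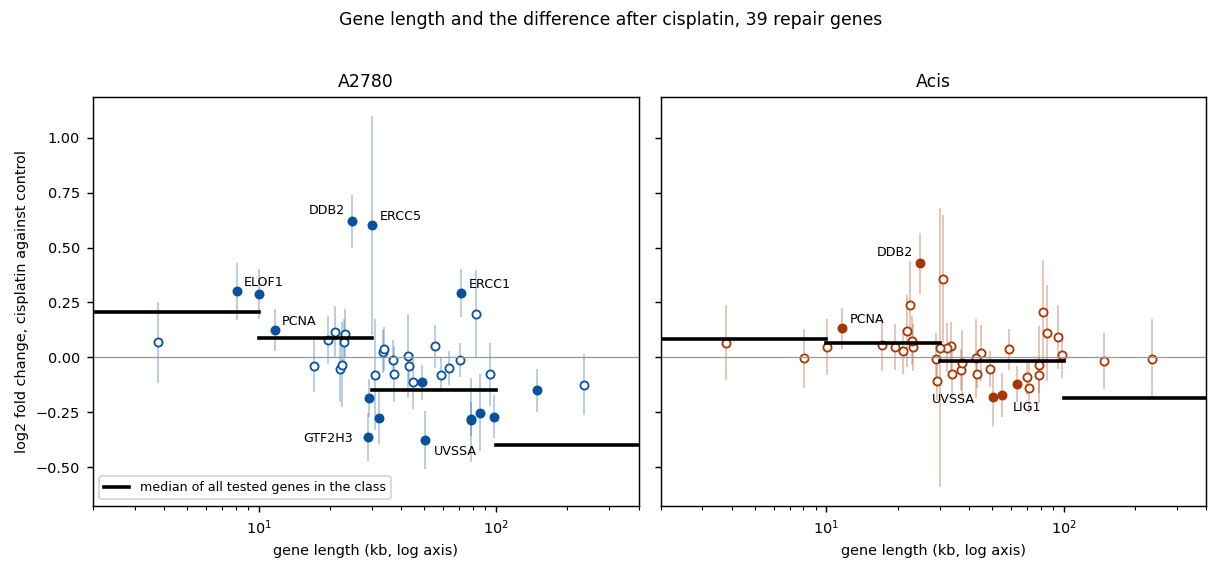
Log2 fold change of cisplatin against control (y axis) by gene length in kb (x axis, log scale) for the 39 tested repair genes in A2780 (left) and Acis (right), with 95% intervals, filled points for an adjusted p-value under 0.05 and black lines for the median of all tested genes in 4 length classes. Values fall with length in A2780, where DDB2 and ERCC1 lie above the median of their class.

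ATAC-seq peaks within 500 bases of the annotated gene start were listed for 34 of the 40 genes in untreated and in treated A2780, 33 in untreated Acis and 35 in treated Acis, and 32 had one in all 4 lists. Of all tested genes 65.6%, 66.1%, 59.3% and 62.9% had such a peak. DDB1, UVSSA, RPA3, RFC5 and XRCC1 had none at the gene start in any list, but each had one at the start of another annotated transcript. CUL4A and LIG3 had none in the Acis control list, and POLE had none in either list of A2780.

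The fold enrichment of these peaks over the local background was lower after cisplatin in A2780 at 33 of 34 repair genes, and their median went from 19.0 to 14.5. The median ratio of cisplatin to control was 0.782, beside 0.833 over 9888 genes with a peak in both lists, of which 88.0% were below 1. In Acis the median ratio was 0.961, with 23 of 33 below 1, beside 0.979 over 9118 genes, of which 57.4% were below 1. MNAT1 was the gene in A2780 with a higher value after cisplatin, 11.2 against 8.67. There was 1 list for each condition, replicates were combined by the authors and depth was not equalized, so none of these differences could be set against a spread between replicates.

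At DDB2, whose transcript rose in both lines, the peak covers the p53 site and had a fold enrichment of 10.2 in A2780 control and 8.80 after cisplatin, and of 14.7 and 14.8 in Acis. Its summit stood 38 and 276 bases from the middle of the site in A2780 (control, cisplatin). In Acis it stood at -615 and -560 bases, that is, upstream. The fold enrichment is given for a peak, so openness at the site itself was not compared between the lines. At ERCC1 the values were 15.8 and 13.7 in A2780 and 18.4 and 18.4 in Acis, and at ERCC4 they were 23.4 and 21.3 in A2780 and 27.4 and 28.1 in Acis. At RFC1 the peak went from 18.9 to 13.4 in Acis, the lowest ratio there (0.712), while in A2780 it went from 14.7 to 13.7.

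**Figure D5:**
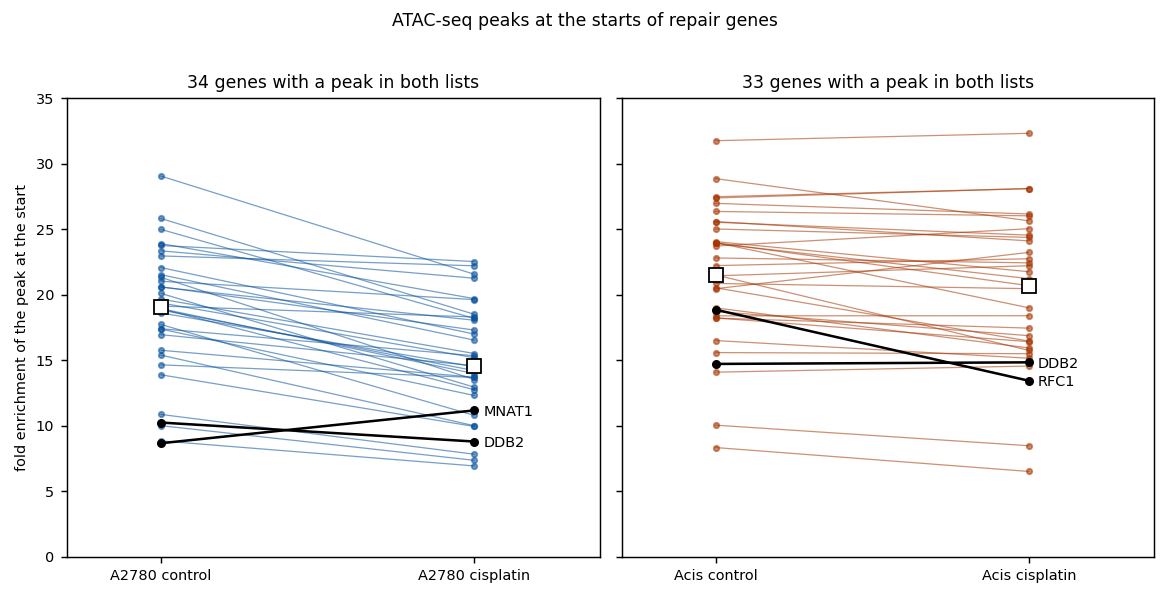
Fold enrichment over local background (y axis) of the ATAC-seq peak at the start of each repair gene in the control and cisplatin lists (x axis) of A2780 (left, 34 genes) and Acis (right, 33 genes), with squares for medians. Lines slope down in A2780 for all genes but MNAT1, from a median of 19.0 to 14.5, and are flatter in Acis, from 21.5 to 20.7.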

How the data were processed

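RNA-seq and ATAC-seq of 4 conditions were used, and the XR-seq samples were not analysed here. The authors aligned 75 nt single-end reads of stranded, ribosomal RNA-depleted libraries to hg38 with STAR 2.7.3a, removed duplicates with Picard and counted reads with htseq-count 0.11.1, and the raw counts were deposited. Removing single-end duplicates limits the count of a gene (5410 at most), and htseq-count drops reads that align more than once or lie in overlapping genes. The deposited peaks carry a fold enrichment and a -log10 q from MACS2, with replicates of a condition combined by the authors.

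Counts were analysed with R 4.3.3 and edgeR 4.0.16 (TMM, factors 0.965 to 1.05, filterByExpr, quasi-likelihood test, a mean per group over 12 libraries, Benjamini-Hochberg over 15760 genes), and normalised counts were scaled to 4572775 reads. DESeq2 1.42.0, other scalings and filters, 2 groups alone, merged pairs, single omissions and a replicate block were alternatives, and RefSeq gene length was added after seeing the data. The replicate numbers did not pair the libraries across all 4 groups (correlations of deviations -0.176 to 0.245 over 18 pairs). Among A2780 control, A2780 cisplatin and Acis control the same-number correlations were all positive, 0.0183 to 0.245. With Acis cisplatin they were -0.176 to 0.088, and a pair of different numbers (Acis control 1, Acis cisplatin 3) reached 0.222. The main fit had no replicate block. Positions came from GENCODE 44 on GRCh38, which lacks 109 of the identifiers. Depth limits the precision of genes with few reads, and peak depth is unknown.

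The repair genes, further pathway genes and markers were chosen with earlier results of these data known. Values in every library are given for the up to 8 genes with the largest absolute log2 fold change past an adjusted p-value of 0.05 in each comparison of the study, and for all past it in the interaction.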

Additional observations from a re-analysis of the deposited data

Results flagged for a closer look

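For 8 repair genes the effect of cisplatin differed between the lines by the interaction term of the edgeR quasi-likelihood fit (adjusted p-value under 0.05), given here as the log2 effect in Acis minus that in A2780. It was -0.43 for ERCC1, -0.31 for ELOF1, -0.24 for XAB2 and -0.22 for LIG1, and 0.35 for GTF2H3, 0.32 for ERCC4, 0.28 for CUL4B and 0.20 for RFC1. For ERCC1, ELOF1 and XAB2 the call in A2780 was an increase, for GTF2H3, ERCC4, CUL4B and RFC1 a decrease, and for LIG1 the call was a decrease in Acis. The calls of GTF2H3, CUL4B and ERCC1 were kept under all 19 alternatives. By DESeq2 the adjusted p-values were 0.0844 for ERCC4, 0.0873 for ELOF1, 0.135 for XAB2, 0.0808 for LIG1 and 0.132 for RFC1.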

How the results depend on the processing

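Depth limits the genes with few reads, of which ERCC5 and GTF2H4 stand out, and small changes near the threshold. Of RLE size factors, total counts as library size and DESeq2, only total counts turned the sign of a called repair gene, RAD23B with cisplatin in A2780 (0.0043). Of 16, 5, 21, 28 and 8 calls (cisplatin in A2780, cisplatin in Acis, untreated lines, treated lines, interaction), 9, 1, 14, 16 and 3 were kept under all alternatives. The fit with a replicate block gave 6 higher and 10 lower with cisplatin in A2780 and changed no call of a repair gene. The numbers do not pair the Acis cisplatin libraries with those of the other groups.

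With cisplatin in A2780, 6 genes were lower by DESeq2 (22.9% of all genes). With total counts as library size 17 were higher and 5 lower (33.6% and 19.4% of all genes). Among genes with at least 50 counts on average 11 were higher (3204 of 10898 in all). Single omissions gave 5 to 6 higher and 6 to 11 lower, the 6 without A2780 cisplatin replicate 1. Without that library 4179 of all genes were lower, against 4451 in the main fit. In Acis, 1 was higher by DESeq2 (3.41% of all genes) and with RLE size factors (8.17%). The count was also 1 with no filter (1369 of all genes) and with merged pairs (1245), where the main fit had 1474 of all genes higher. With RLE size factors 7 were lower (14.0%), and with total counts 0 (8.95%). Omissions gave 1 higher and 0 to 5 lower. The lower count was 0 without Acis cisplatin replicate 1 or 2 (1563 and 1647 of all genes) and 1 without Acis control replicate 1 (1788). It was 5 without Acis cisplatin replicate 3 (1891), and the main fit had 1962 of all genes lower. Between untreated lines 5 were higher by DESeq2 (23.9% of all genes), and omissions gave 5 to 9 higher and 11 to 14 lower. The 5 were without Acis control replicate 3, where 4115 of all genes were higher, against 4447 in the main fit. Between treated lines 6 were higher by DESeq2 (26.2% of all genes), with total counts (27.6%) and among genes with at least 50 counts (3662 of 10898). In fits of these groups alone 8 were higher, with 4686 of all genes, against 5016 in the main fit. Omissions gave 9 to 14 higher and 12 to 15 lower. Past both thresholds omissions gave 0 to 1, the 1 being ERCC5 without A2780 cisplatin replicate 3 or Acis cisplatin replicate 2. The interaction was more positive for 2 and more negative for 1 by DESeq2 (6.92% and 1.87% of all genes), and omissions gave 4 to 6 and 2 to 4. The 2 were without any 1 A2780 control library, A2780 cisplatin replicate 1, Acis control replicate 1 or Acis cisplatin replicate 1 or 2. In these fits 525 to 642 of all genes were more negative, against 863 in the main fit.

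The rank correlation of fold change with merged exon length was -0.415 in A2780, and RefSeq gene length gave -0.511 there and -0.367 in Acis. Peaks at the start of any annotated transcript were listed for 39, 39, 38 and 40 genes (A2780 control, A2780 cisplatin, Acis control, Acis cisplatin), and peaks with a -log10 q of at least 50 for 29 in Acis cisplatin.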
